A study of Homo sapiens with 6 samples.

Results

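Neural lineage genes are 8 genes, SOX2, OTX2, ISL1, SYT1, L1CAM, NGFR, MAPT and PTPRZ1, read here in A673 Ewing sarcoma cells whose FLI1 was targeted. They are neural transcription factors and neuronal surface, vesicle and cytoskeletal genes, taken by symbol from a count table of 27234 gene rows, in which each of the 8 had 1 row. Libraries came from A673 cells 48 h after transfection with siRNA against FLI1 (siFLI1, 3 libraries) or with a scrambled siRNA (siControl, 3 libraries). All 6 libraries come from this 1 cell line, which is labelled as carrying the EWS-FLI1 fusion, so both groups share the fusion and the transfection. The 8 genes were selected on their values in siFLI1 against siControl, the log2 fold changes and levels of an earlier look at these data. Their differences between the groups are therefore given as a description, with no test, and their counts past a threshold are no evidence about them.

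Ewing sarcoma is a tumour of bone and soft tissue driven by a fusion of EWSR1 with an ETS factor, most often FLI1. The fusion protein binds the ETS core GGAA and runs of GGAA repeats, from which it activates distant genes, and it lowers other genes. Ewing cells carry a mixture of neural and mesenchymal transcripts, and SOX2 is known as a gene that EWS-FLI1 activates. Because libraries read the 3' ends of polyadenylated RNA from whole cultures, fewer cells of a type and less RNA per cell cannot be told apart.

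A stretch of the 250 bases before the start site is shown for a pair of transcription factors that were lower in siFLI1 and for the surface gene that was higher. Capitals mark GGAA or its complement TTCC. Sequences are those of RefSeq on GRCh38.p14, whose numbering on these chromosomes is that of hg38, and only bases outside exons annotated by GENCODE are printed.
SOX2 (chr3:181711675-181711923, plus strand): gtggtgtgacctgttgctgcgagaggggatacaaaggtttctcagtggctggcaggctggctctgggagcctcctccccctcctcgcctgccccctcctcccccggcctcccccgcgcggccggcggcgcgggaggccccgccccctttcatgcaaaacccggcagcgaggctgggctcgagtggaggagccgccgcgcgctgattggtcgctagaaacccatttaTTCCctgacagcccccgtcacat
OTX2 (chr14:56810480-56810729, minus strand): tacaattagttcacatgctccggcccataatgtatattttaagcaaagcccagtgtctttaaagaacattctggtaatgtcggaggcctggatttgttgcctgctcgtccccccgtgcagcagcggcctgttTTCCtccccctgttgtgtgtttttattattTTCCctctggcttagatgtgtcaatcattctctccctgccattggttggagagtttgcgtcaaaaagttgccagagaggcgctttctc
L1CAM (chrX:153876040-153876113, minus strand): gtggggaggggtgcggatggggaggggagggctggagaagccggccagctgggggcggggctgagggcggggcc
Windows were found for 6 of the 8 genes, and the starts used for SOX2 and OTX2 lie 1 and 3 bases from the start of their rows in the count table. The L1CAM stretch is the longest run of its window outside annotated exons, 74 bases, and it holds 0 matches. It does not reach the start site, which is at 153875944. Over the 250 bases before the start, GGAA occurred 1 time for SOX2, 2 times for OTX2, 1 time for ISL1, 2 times for SYT1, 6 times for L1CAM and 0 times for PTPRZ1, counting both strands. The OTX2 and L1CAM figures are for the start that matches the count table, whereas the starts of ISL1, SYT1 and PTPRZ1 lie 324, 781 and 56 bases from those of their rows. The median over 35116 such windows was 3, and 92.7% held at least 1. The doubled motif GGAAGGAA, which overlaps 2 of the GGAA matches, was in 0 of these 6 windows and in 3.06% of all windows. A match is a string of letters and not a binding site, and distant GGAA repeats lie outside these windows.

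The 6 libraries held from 417145 to 1893606 counts, the fewest in siFLI1 replicate 3, where 1 count was worth 2.68 CPM against 0.539 to 0.855 CPM in the others. Levels are CPM, counts relative to the size of the library, after TMM (trimmed mean of M values) scaling. The knockdown target FLI1 had 19.0, 42.5 and 24.1 CPM in siFLI1 replicates 1, 2 and 3, against 63.0, 69.1 and 62.4 CPM in siControl replicates 1, 2 and 3. Its log2 fold change of −1.16 ± 0.36 (SE) missed the threshold set over the whole table (adjusted p = 0.17 in edgeR's quasi-likelihood test). All 8 markers fixed for the line, among them CD99 and NKX2-2, had counts in each of the 6 libraries. Their summed level ran from 1175 to 1941 CPM in siFLI1 and from 2742 to 3956 CPM in siControl, and NR0B1 and PRKCB, known targets of the fusion, fell in siFLI1 (edgeR adjusted p = 0.025 and 0.0369). Of 9420 tested genes, 137, or 1.45%, passed an adjusted p of 0.05 in that test, 126 (1.34%) higher and 11 (0.117%) lower in siFLI1.

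Across the 8 genes there was no common direction. SOX2, OTX2, ISL1 and SYT1 were lower in every siFLI1 library than in every siControl library, L1CAM was higher in every one, and NGFR, MAPT and PTPRZ1 overlapped. Of the 7 genes that passed the filter on low counts, 2 were past the threshold over all genes, OTX2 lower and L1CAM higher, beside 1.45% of all tested genes, or 0.117% lower and 1.34% higher. The libraries of the groups did not overlap for 5 of the 7, 4 lower and 1 higher in siFLI1, beside 16.6% of all tested genes, 7.71% lower and 8.93% higher. Because the choice used this contrast, nothing is read from these shares. The median log2 fold change of the 7 was −1.20, against 0.01 over all tested genes. PTPRZ1 did not pass the filter.

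**Figure D1:**
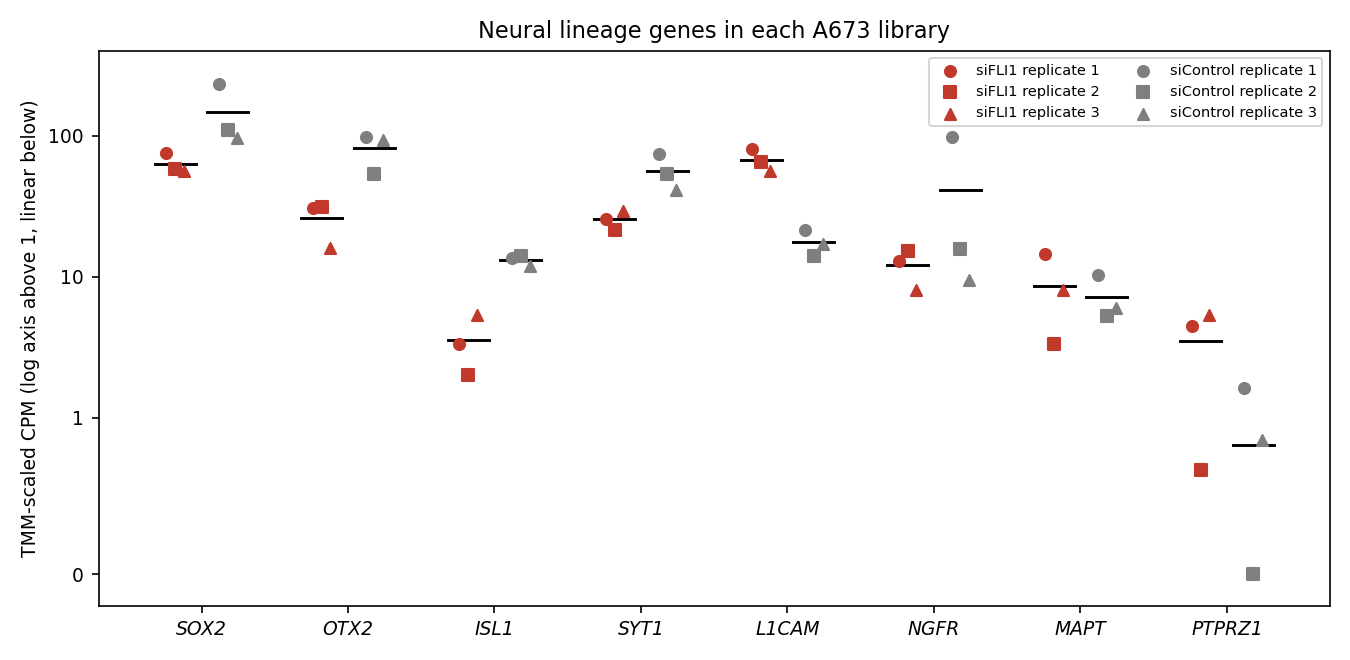
Levels of the 8 genes, library by library, as CPM after TMM scaling on an axis that is logarithmic above 1 and linear below, with siFLI1 in red, left of siControl in grey. Points are libraries, with the shape giving the replicate, and bars are means. SOX2, OTX2, ISL1 and SYT1 lie lower and L1CAM higher in siFLI1, and siControl replicate 1 stands alone for NGFR at 97.5 CPM.

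SOX2, a factor of the SOX family that maintains neural progenitors (row NM_003106, plus strand of chromosome 3 from 181711924 to 181714435 in hg38), reached 74.9, 58.5 and 56.2 CPM in siFLI1 replicates 1, 2 and 3. In siControl replicates 1, 2 and 3 it was at 234, 109.5 and 96.6 CPM. The siFLI1 libraries lay close together and below all siControl libraries, of which replicate 1 was 2.27 times the mean of the other pair. The siFLI1 mean of 63.2 ± 10.2 CPM (SD, n = 3) came to 43.1% of 147 ± 75.7 CPM in siControl, and the log2 fold change was −1.20 ± 0.35 (SE). Without siControl replicate 1 the log2 fold change was −0.72, and without both that library and siFLI1 replicate 3 it was −0.64. The gene lies inside the row of the non-coding SOX2-OT on the same strand, which had at most 4 counts in any library.

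OTX2, a homeobox factor of the developing forebrain, midbrain and eye (row NR_073034, chromosome 14, 56800707 to 56810476, minus strand), was at 30.8, 31.2 and 16.1 CPM in siFLI1. The corresponding siControl libraries were at 97.5, 53.9 and 93.2 CPM. Here siControl replicate 2 was the lowest of its group and still above each siFLI1 library. The means were 26 ± 8.62 CPM in siFLI1 against 81.5 ± 24 CPM in siControl (SD, n = 3 each), a log2 fold change of −1.56 ± 0.35 (SE). Over 13 alternative fits it ran from −1.79 to −1.24. The lowest library, siFLI1 replicate 3, rests on 6 counts. OTX2 was past the threshold in 4 of those 13 fits and in 0 of the 6 that left out 1 library.

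ISL1, a LIM-homeobox factor of motor and sensory neurons (row NM_002202, chromosome 5, 51383124 to 51394729, plus strand), was rarer. It had 6, 3 and 2 counts in siFLI1, or 3.35, 1.99 and 5.36 CPM, and 25, 24 and 14 counts in siControl, or 13.5, 14.1 and 12.0 CPM. The lowest siControl library lay well above the highest siFLI1 library. The means were 3.57 ± 1.69 CPM in siFLI1 against 13.2 ± 1.08 CPM in siControl (SD, n = 3 each), with a log2 fold change of −2.05 ± 0.63 (SE). This is the lowest of the fold changes of the 7 genes and rests on 11 counts in siFLI1 and 63 in siControl. The row overlaps LOC642366 on the other strand, which had 11 counts in siFLI1 replicate 3 and at most 3 in the others.

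Among genes of the synaptic vesicle, SYT1, the calcium sensor of transmitter release (row NM_001135805, chromosome 12, 78863993 to 79452008, plus strand), was at 25.7, 21.3 and 29.5 CPM in siFLI1. It was at 73.8, 53.3 and 41.0 CPM in siControl. The highest siFLI1 library lay below the lowest siControl library. The siFLI1 mean of 25.5 ± 4.10 CPM came to 45.5% of 56.0 ± 16.5 CPM in siControl (SD, n = 3 each), a log2 fold change of −1.18 ± 0.35 (SE), with −0.95 without siControl replicate 1.

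L1CAM, a neural cell adhesion protein of the immunoglobulin family that guides axons (row NM_001143963, chromosome X, 153861514 to 153875944, minus strand), went the other way. It was at 80.0, 65.1 and 56.2 CPM in siFLI1 and at 21.5, 14.1 and 17.1 CPM in siControl. The lowest siFLI1 library was well above the highest siControl library. The mean of 67.1 ± 12.0 CPM in siFLI1 was 3.82 times that of 17.6 ± 3.76 CPM in siControl (SD, n = 3 each), a log2 fold change of 1.94 ± 0.34 (SE). Over the 13 alternative fits it ran from 1.79 to 2.22 and was past the threshold in 10. Leaving out siFLI1 replicate 1, or either of siControl replicates 2 and 3, took it short of the threshold. Beside it, 15 markers of mesenchymal cells and fibroblasts summed to 9494 to 11150 CPM in siFLI1 and 3335 to 4431 CPM in siControl. Most of it was VIM, at 5910 ± 999 CPM in siFLI1 against 2645 ± 662 CPM in siControl (SD, n = 3 each). VIM itself missed the threshold (edgeR adjusted p = 0.156). Of the 11 tested markers, 7 were called higher and 0 lower in the edgeR test, beside 1.34% and 0.117% of all tested genes. The part of the 15 markers in the level of L1CAM was not tested.

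Set against each other within a library, which needs no scaling, L1CAM had 1.07, 1.11 and 1 counts for each SOX2 count in siFLI1 replicates 1, 2 and 3. The ratio was 0.0922, 0.128 and 0.177 in siControl. SYT1 had 0.343, 0.364 and 0.524 counts for each SOX2 count in siFLI1 and 0.316, 0.487 and 0.425 in siControl. The L1CAM ratio separated the groups in every library, whereas the SYT1 ratio overlapped. With L1CAM higher and SOX2 lower in every siFLI1 library, their ratio had to separate. All 3 genes were chosen on this contrast, so these ratios are a description and no further support.

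NGFR, the low-affinity neurotrophin receptor p75 and also a marker of mesenchymal stem cells (row NM_002507, chromosome 17, 49495293 to 49515020, plus strand), was decided by 1 library. It was at 12.9, 15.3 and 8.03 CPM in siFLI1 and at 97.5, 15.8 and 9.40 CPM in siControl. The other siControl libraries lay within or next to the siFLI1 range, and siControl replicate 1 was 7.73 times their mean. The means were 12.1 ± 3.69 CPM in siFLI1 against 40.9 ± 49.1 CPM in siControl (SD, n = 3 each), with a log2 fold change of −1.69 ± 0.74 (SE). Without siControl replicate 1 the log2 fold change was −0.04, and without siFLI1 replicate 3 as well it was 0.12.

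MAPT, which encodes the microtubule-binding protein tau (row NM_001123067, chromosome 17, 45894382 to 46028333, plus strand), showed no separation. It was at 14.5, 3.32 and 8.03 CPM in siFLI1 and at 10.2, 5.27 and 5.98 CPM in siControl. The spread within siFLI1 was wider than the distance between the groups. Its log2 fold change was 0.29 ± 0.66 (SE), and it ran from −0.53 without siFLI1 replicate 1 to 0.73 without siFLI1 replicate 2. The table lists 3 copies of this transcript in the build, so its reads could be split between places.

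PTPRZ1, a receptor tyrosine phosphatase of glia and neural progenitors (row NM_002851, chromosome 7, 121873105 to 122062036, plus strand), had 8, 1 and 2 counts in siFLI1 and 3, 0 and 1 in siControl. At this depth siFLI1 replicate 2 could not be told from siControl. In all it had 11 counts in siFLI1, of which 8 were in replicate 1, against 4 in siControl, and no fold is read from so few.

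**Figure D2:**
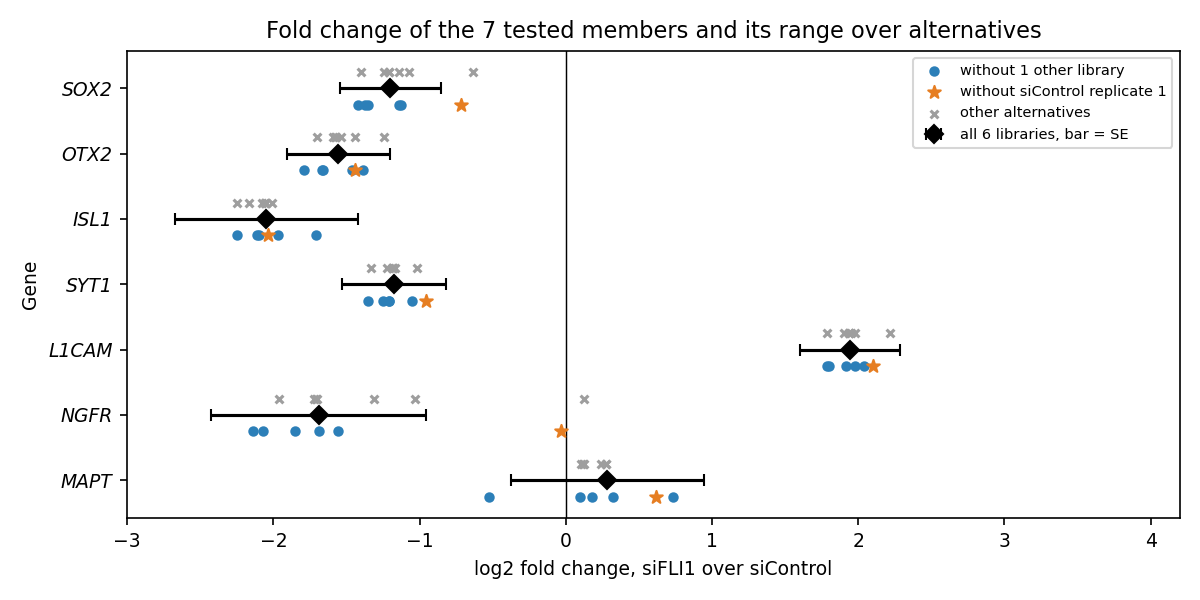
Log2 fold change of siFLI1 over siControl for the 7 tested genes, from all 6 libraries (black diamonds, bars are SE), from fits without 1 library (blue points, with an orange star where siControl replicate 1 was left out) and from the other alternatives (grey crosses). NGFR moves from −1.69 with all libraries to −0.04 without siControl replicate 1, while L1CAM lies between 1.79 and 2.22 in all alternatives.

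Of the 7 tested genes, 6 were highest in siControl replicate 1 among the siControl libraries, beside 38.3% of all tested genes. The summed level of the 8 genes was 247, 197 and 185 CPM in siFLI1 replicates 1, 2 and 3, against 549, 266 and 276 CPM in siControl replicates 1, 2 and 3. The groups did not overlap in this sum, and siControl replicate 1 stood well above the other pair. The part of that library in the sum was not tested beyond the fits that leave it out. As markers of other neural cells, 10 glial and Schwann cell genes summed to 10.7 to 17.3 CPM in siFLI1 and 3.51 to 18.3 CPM in siControl, 0 of them passed the filter, and S100B and GFAP had no count. Blood cell markers summed to 77.7 to 109.8 CPM in siFLI1 and 50.1 to 62.4 CPM in siControl, with CD3E at 0. CD68 was the highest of them by its mean. In siFLI1 replicate 3, however, the leukocyte gene PTPRC stood at 42.8 CPM and CD68 at 37.5 CPM. PTPRC also had 6 counts (5.13 CPM) in siControl replicate 3 and no count in the remaining libraries. Epithelial and endothelial markers summed to 230.3 to 260.5 CPM in siFLI1 and 185 to 234 CPM in siControl, most of it KRT18, with KRT19 at 0.

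Per kilobase of exon, SOX2 was the highest of the 8 in both groups, at 25.2 ± 4.07 CPM per kb in siFLI1 and 58.4 ± 30.2 CPM per kb in siControl (SD, n = 3 each). Reads from 3' ends do not scale with transcript length, so dividing by length can change the order and the ranking is not one of RNA levels. In CPM without length, L1CAM at 67.1 stood above SOX2 at 63.2 in siFLI1. In siControl, SYT1 at 56.0 CPM stood above NGFR at 40.9, and L1CAM at 17.6 CPM above ISL1 at 13.2. In siFLI1 L1CAM came next at 13.5 ± 2.41 CPM per kb, with OTX2 at 12.8 ± 4.25, and these neighbours overlapped. SYT1 followed at 5.30 ± 0.85 and NGFR at 3.53 ± 1.08, overlapping by a small margin, then MAPT at 1.51 ± 0.99 and ISL1 at 1.32 ± 0.62, of which MAPT overlapped NGFR, ISL1 and the gene below, PTPRZ1. In siControl OTX2 came second at 40.2 ± 11.9 CPM per kb, overlapping SOX2, and NGFR at 12.0 ± 14.4 overlapped OTX2, ISL1, L1CAM and SYT1, the last at 11.6 ± 3.44. L1CAM, at 3.53 ± 0.76 CPM per kb in siControl, stood below ISL1 at 4.86 ± 0.40 and above MAPT at 1.25 ± 0.47. PTPRZ1 had the lowest mean in both groups, at 0.43 ± 0.31 CPM per kb in siFLI1 and 0.10 ± 0.10 CPM per kb in siControl.

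Likeness of pattern was measured as the root mean square difference of log2(CPM + 1), centred on each gene's mean, over the 6 libraries, which share the scaling and the depth. SOX2 and SYT1 were the most alike pair of the 7 at 0.262, and ISL1 and L1CAM the least alike at 1.84. Over all tested genes SOX2 was nearest to TYK2, a Janus kinase, at 0.154, to the mitotic kinase MASTL at 0.18 and to the mitotic kinesin KIF2C at 0.192, where the median gene lay at 0.825. OTX2 was nearest to the macroH2A histone gene H2AFY2 at 0.196, the calcineurin subunit PPP3R1 at 0.201 and the POU factor POU3F1 at 0.205 (median gene 1.01). ISL1 was nearest to FEZF1-AS1 at 0.249, TPTE2 at 0.255 and TSEN54 at 0.27 (median 1.02), and SYT1 to HOOK1 at 0.122, FCHSD2 at 0.126 and LBH at 0.152 (median 0.76). L1CAM was nearest to SMAD3, a mediator of TGF-beta signalling, at 0.125, the RNA-binding protein ZFP36L1 at 0.131 and the smooth muscle gene TAGLN at 0.219 (median 1.07). NGFR had no close match, with ERAP2 at 0.409, MAP2K3 at 0.484 and PKMYT1 at 0.485 (median 1.22), all highest in siControl replicate 1. MAPT and PTPRZ1 were too low to be matched. A gene near L1CAM in pattern must differ between the groups much as L1CAM does, and likewise for the others. No test of these 18 genes is therefore given here. POU3F1, 1 of the 18, is also in a list below, where its test value is no support for its likeness to OTX2.

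**Figure D3:**
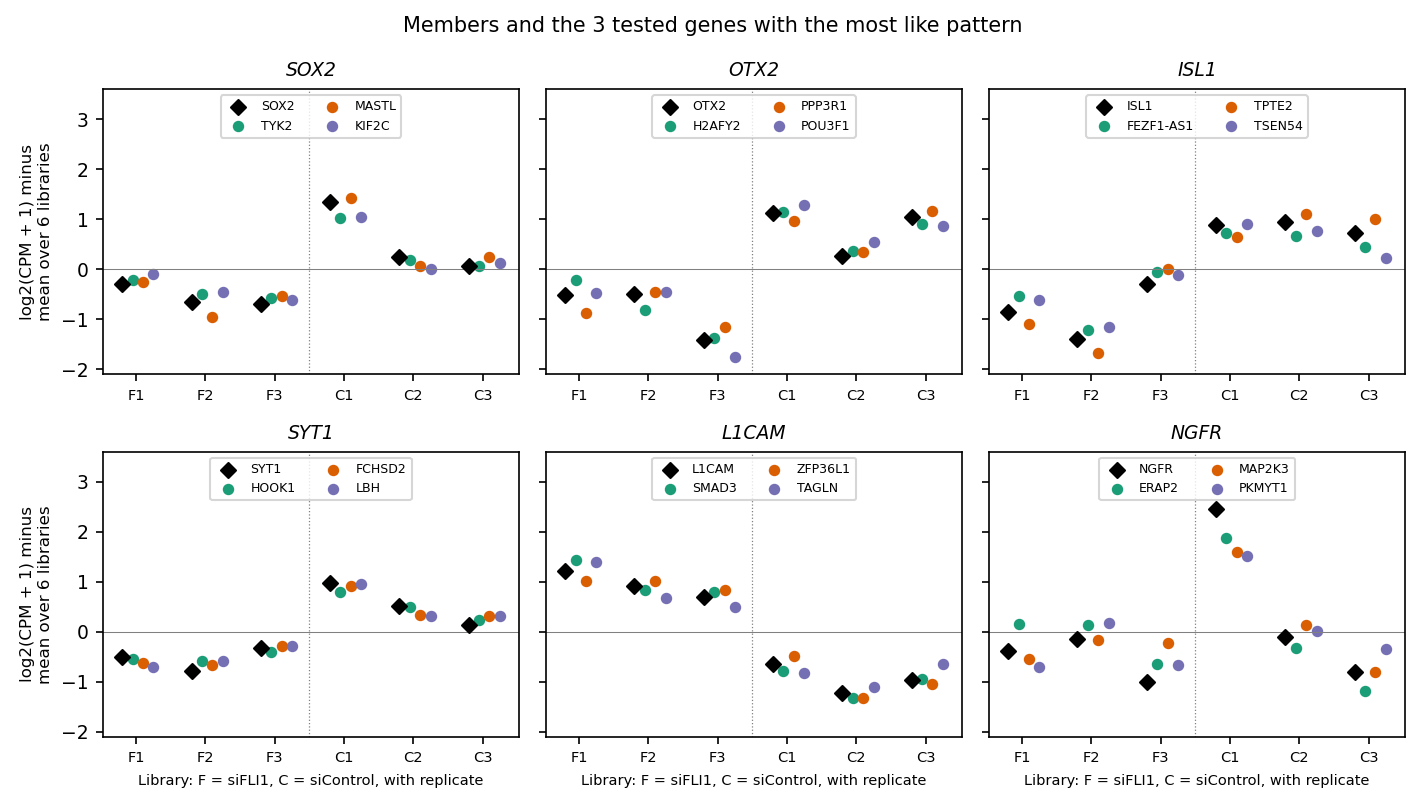
Pattern of 6 of the genes (black diamonds) and of the 3 tested genes nearest to each (coloured points) over the siFLI1 libraries F1 to F3 and the siControl libraries C1 to C3, as log2(CPM + 1) minus the gene's mean over the 6 libraries. L1CAM and its neighbours lie above 0 in siFLI1, the NGFR panel peaks in siControl replicate 1, and the nearest gene of SYT1 differed from it by 0.122.

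Genes that work beside the 8 were read from 5 lists of 233 entries, of which 232 were found and 104 passed the filter. In the edgeR test 1 was higher and 0 were lower, which is 0.96% of the 104, beside 1.45% of all tested genes. An unadjusted edgeR p under 0.05 was reached by 11 of the 104 in the higher direction and by 10 in the lower. Over all 9420 tested genes it was reached by 624 (6.62%) and 389 (4.13%). Log2 fold changes over all tested genes were positive for 4752 and negative for 4668, to be set beside the numbers of each list below. The 1 called gene was NRP1, a receptor for semaphorins and VEGF, at 344 ± 118 CPM in siFLI1 against 142 ± 33.1 CPM in siControl (SD, n = 3 each), or 1.29 ± 0.30 as a log2 fold change (SE, edgeR adjusted p = 0.0482). It was past the threshold in 5 of 13 alternative fits, and of those without 1 library only in that without siFLI1 replicate 3. DESeq2 and limma-voom each called 1 listed gene lower, FEZF1 (adjusted p = 0.0272 and 0.0447).

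Of 21 tested neural transcription factors, 15 had a negative and 6 a positive log2 fold change, with a median of −0.53 against 0.01 over all genes, and 0 were called (edgeR, with 2 up and 4 down when p is left unadjusted at 0.05). The members with the highest level were HES1, a Notch target that holds progenitors back from differentiation, at −0.33 ± 0.26 on the log2 scale (fold change and SE, adjusted p = 0.728), and the neural crest factor TFAP2A at 1.21 ± 0.34 (adjusted p = 0.122). Near relatives and partners of the 8 genes are named from here on, in all 5 lists, outside the naming rule and after their values were seen. SOX1, which acts with SOX2 in neural progenitors, was at 4.56 ± 1.70 CPM in siFLI1 against 13.0 ± 0.69 CPM in siControl, with −1.36 ± 0.56 (adjusted p = 0.396). SOX9, of neural crest and cartilage, was at 25.5 ± 6.11 CPM in siFLI1 against 8.40 ± 4.56 CPM in siControl, with 1.57 ± 0.54 (adjusted p = 0.248). The POU factor POU3F1, also named above as near OTX2 in pattern, was at 6.16 ± 3.02 CPM in siFLI1 against 22.5 ± 6.12 CPM in siControl. Its log2 fold change was −1.69 ± 0.52 (adjusted p = 0.17), and that of FEZF1 was −1.25 ± 0.30 (adjusted p = 0.0614). The paralogues OTX1 and ISL2 were too low to test, with at most 4 counts of OTX1 and 17 of ISL2 in any library. SOX1, SOX9 and POU3F1 thus showed differences of either sign and none passed the threshold in edgeR.

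Of 13 tested vesicle and exocytosis genes, 8 were positive and 5 negative, with 0.25 as the median log2 fold change and 0 called (edgeR, with 2 up and 0 down when p is left unadjusted at 0.05, and 0 in DESeq2 and limma-voom). SYPL1, a synaptophysin relative found in many cells, was at 0.25 ± 0.25 (SE, adjusted p = 0.807) and RAB3B, a vesicle GTPase, at 0.84 ± 0.26 (adjusted p = 0.175). The fusion partner of SYT1, SNAP25, was at 16.6 ± 8.56 CPM in siFLI1 against 10.3 ± 2.48 CPM in siControl, and SYT11 at 41.9 ± 9.19 CPM in siFLI1 against 29 ± 2.98 CPM in siControl (SD, n = 3 each). Both means were higher in siFLI1, unlike that of SYT1, and neither gene passed (edgeR adjusted p = 0.653 and 0.635). The relative SYT6 and the syntaxin STX1A had lower means in siFLI1, as SYT1 did. SYT6 was at 27.4 ± 17.2 CPM in siFLI1 against 58.5 ± 29.2 CPM in siControl. STX1A was at 12.9 ± 4.39 CPM in siFLI1 against 18.4 ± 4.28 CPM in siControl. Neither of these passed (edgeR adjusted p = 0.528 and 0.825), so relatives and partners of SYT1 went both ways.

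Of 24 tested adhesion and guidance genes, 19 were positive and 5 negative, with a median of 0.39 and NRP1 as the 1 call (edgeR, with 4 up and 3 down when p is left unadjusted at 0.05). The receptor phosphatase PTPRF was at 0.32 ± 0.31 (SE, edgeR adjusted p = 0.795). Of the L1 family beside L1CAM, NRCAM was at 132 ± 27.2 CPM in siFLI1 against 101 ± 8.46 CPM in siControl (SD, n = 3 each), or 0.41 ± 0.26 as a log2 fold change (adjusted p = 0.641). CHL1 had counts in siFLI1 replicate 3 alone, 6 in number, and NFASC had 1 count in all. Of the ligands of PTPRZ1, MDK was at 149.96 ± 73.6 CPM in siFLI1 against 92.7 ± 27.98 CPM in siControl (log2 fold change 0.73 ± 0.35, adjusted p = 0.487), and without siFLI1 replicate 3 and siControl replicate 1 it was past the threshold at 1.27 (adjusted p = 0.0301). PTN had 7, 1 and 21 counts in siFLI1 and 2, 4 and 2 in siControl, most of them in siFLI1 replicate 3, the library with the fewest counts.

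Of 18 tested neurotrophin signalling genes, 7 were positive and 11 negative, with a median of −0.13 and 0 called (edgeR, with 0 up and 2 down when p is left unadjusted at 0.05, and 0 in DESeq2 and limma-voom). BEX3 and MAGED1, which bind the intracellular part of NGFR, were at −0.04 ± 0.31 and 0.22 ± 0.25 on the log2 scale (SE, adjusted p = 0.975 and 0.841). The neurotrophin-3 receptor gene NTRK3 had 1 count in all. The ligand BDNF had 22, 2 and 3 counts in siFLI1 and 0, 3 and 1 in siControl and was not tested.

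Of 28 tested neuronal cytoskeleton genes, 17 were positive and 11 negative, with a median of 0.04 and 0 called (edgeR, with 3 up and 1 down when p is left unadjusted at 0.05, and 0 in DESeq2 and limma-voom). TUBB2A, a neuronal beta-tubulin, was at 0.16 ± 0.45 and UCHL1, a neuronal ubiquitin hydrolase, at −0.13 ± 0.26 on the log2 scale (SE, adjusted p = 0.937 and 0.913). The microtubule-associated proteins MAP1B and MAP4, relatives of tau in function, were at 74.0 ± 5.89 and 42.8 ± 12.0 CPM in siFLI1 and at 70.4 ± 5.43 and 44.0 ± 13.4 CPM in siControl (SD, n = 3 each). The neuronal tubulin TUBB3 was at 151 ± 13.0 CPM in siFLI1 against 129 ± 25.2 CPM in siControl. The means of these 3 genes differed by less than the larger SD of the groups.

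**Figure D4:**
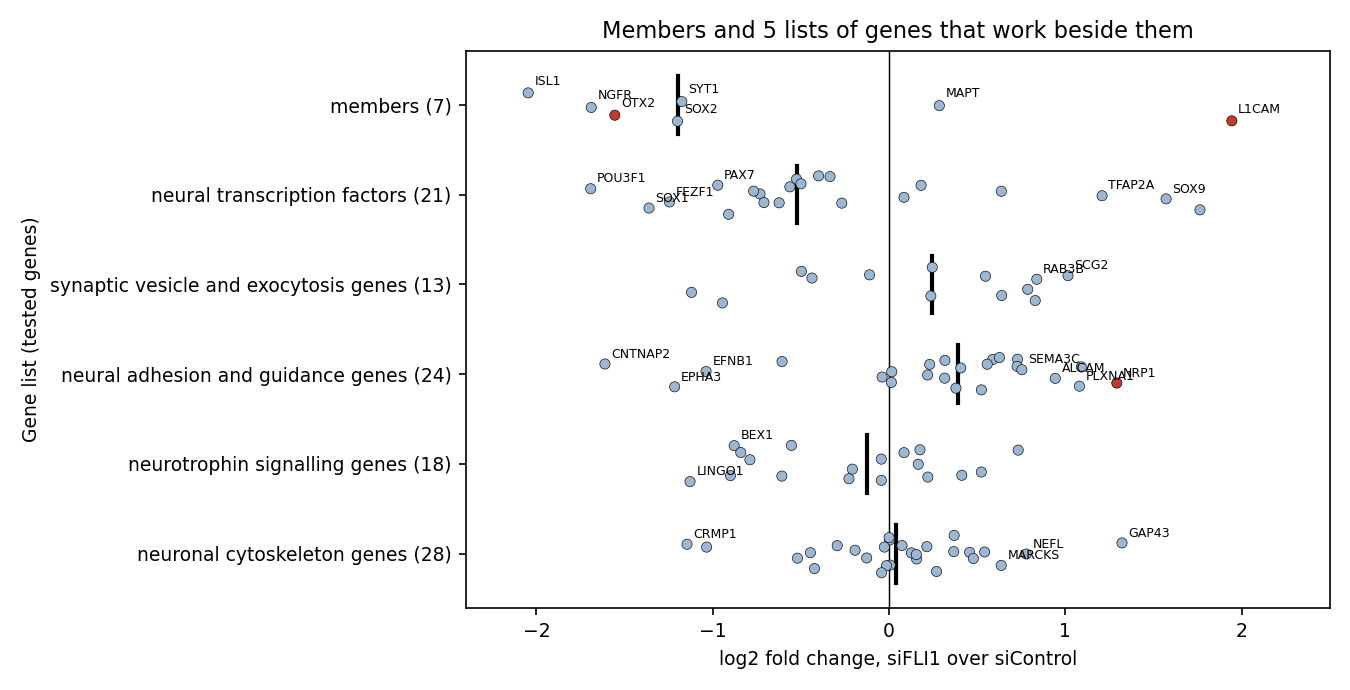
Log2 fold change of siFLI1 over siControl for the 7 tested genes and for the tested genes of 5 lists, 1 point a gene, with the median as a black bar and genes past an adjusted p of 0.05 in red. Names are given for the 7 and for genes with an unadjusted p below 0.05. NRP1 at 1.29 is the 1 called gene of the 5 lists, and the list medians run from −0.53 to 0.39.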

How the data were processed

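The authors deposited 1 table of raw counts for genes, summed over exons of a single RefSeq transcript, per the file headers. The labels' protocols describe a bulk form of MARS-seq that reads 3' ends and carries molecular barcodes. The submitters' processing notes name bcl2fastq, HISAT 0.1.5, HOMER and hg38. Barcode collapse and strand use are not given in the sources used here. PCR copies may therefore be counted, and overlapping genes may share reads. Transfections were in triplicate per the labels' protocols, with no separate days named, so p-values reflect the spread between the 3 libraries of a group, which may be technical. No library looked like another deposited again (lowest chi-square over its degrees of freedom within a group 6.78, a value that PCR copies raise too).

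Genes were kept by filterByExpr (minimum count 10, minimum total 15) and tested in R 4.3.3 with edgeR 4.0.16 (TMM, glmQLFit with robust=TRUE, glmQLFTest, two-sided, group as the 1 term), with Benjamini-Hochberg adjustment over all tested genes and a threshold of 0.05. Standard errors were derived from the F statistic. Alternatives were DESeq2 1.42.0, limma-voom (limma 3.58.1), other scalings, no filter, the replicate number as a block and libraries left out. The fit without siFLI1 replicate 3 and siControl replicate 1 follows an earlier account of these data. The fit was tested on simulated counts. The 8 genes, the lists and the tests were chosen with earlier results of these data known. Named genes beside the 8 and FLI1 were, in each list, those past the threshold and the 2 with the highest mean CPM, and for each of the 8 with a mean of at least 10 CPM in its higher group the 3 genes nearest in pattern. Relatives and partners of the 8 named outside this rule were chosen after their values were seen. The length and the copies of a transcript are those deposited in the table by the authors.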

Additional observations from a re-analysis of the deposited data

How the results depend on the processing

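Directions of the 4 lower genes SOX2, OTX2, ISL1 and SYT1 and of L1CAM held in all 13 alternatives, and those of NGFR and MAPT did not, as given above. The median log2 fold change of the 7 genes ran from −1.42 to −0.72 over the fits without 1 library and from −1.40 to −1.07 over the others with all 7, and was −0.83 over 6 genes, MAPT being untested, without siFLI1 replicate 3 and siControl replicate 1. Scaling by total counts moved the median of all genes from 0.01 to −0.12, and no filter moved it to 0.12. Genes called higher, 126 with all libraries, numbered 64 to 121 without 1 library and 306 with no filter. Genes called lower, 11 with all libraries, numbered 1 to 7 without 1 library, 17 under total counts, 62 with no filter, 34 in DESeq2 and 32 without siFLI1 replicate 3 and siControl replicate 1. Genes of the 5 lists called higher, 1 with all libraries, numbered 0 to 1 without 1 library, 0 under DESeq2 size factors or total counts, 5 with no filter and 2 (NRP1 and MDK) without siFLI1 replicate 3 and siControl replicate 1. Those called lower, 0 with all libraries, numbered 1 with no filter, 1 in DESeq2 and 1 in limma-voom, FEZF1 in each. More genes are tested with no filter, and the cause of the other shifts was not tested. With the replicate number as a block, 2 genes were lower and 0 listed genes higher, but numbers did not pair the samples (correlation of deviations −0.0227, −0.0134 and −0.0427 for numbers 1, 2 and 3). Depth limits ISL1, MAPT and PTPRZ1, since 3 counts come to 8.03 CPM in siFLI1 replicate 3.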

Other observations

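Glial genes were too low to test, and 1 of them is named after its values were seen. PMP22, a myelin protein also made by mesenchymal cells, had 11, 15 and 3 counts in siFLI1 replicates 1, 2 and 3, and 5, 0 and 0 counts in siControl replicates 1, 2 and 3.

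SOX6, a further SOX gene, had 17, 9 and 49 counts in siFLI1 and 27, 18 and 13 counts in siControl, so that its log2 value of 1.76 ± 0.93 (fold change and SE, adjusted p = 0.55 in edgeR) rests on siFLI1 replicate 3. CNTN5, a neural adhesion gene, had 20 counts in that library, 0 in the other siFLI1 libraries and 0, 1 and 2 in siControl. PTN was high in the same library, as given above. In that library the counts came to 10.1% of the header total, the lowest share of the 6 libraries. The part of this share and of the depth in these counts was not tested.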
